A study of Mus musculus with 31 samples.

Results

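Goblet cells are the secretory cells of the colonic epithelium that make its mucus. The main gel-forming mucin, Muc2, is folded in the endoplasmic reticulum with the help of Agr2, O-glycosylated in the Golgi, stored in granules and released as a net. That net also carries the IgG Fc binding protein Fcgbp, the metalloprotease Clca1, the lectin-like Zg16, which binds bacterial cell walls, and the trefoil peptide Tff3, which acts in epithelial repair. Spdef is a transcription factor of late goblet cell differentiation. Loss of mucus and of goblet cells is a known feature of dextran sulfate sodium colitis, so these 7 genes were followed in the distal colon of mice in a chemical model of colitis-associated colorectal cancer, with and without the food additive E171, a titanium dioxide.

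The genes were Muc2, Tff3, Fcgbp, Zg16, Clca1, Agr2 and Spdef, and their members on the array were the probes that carried 1 of these gene names. These were 9 of the 56605 probes other than controls, 2 for Muc2, 2 for Fcgbp and 1 for each of the others, and they gave 7 of the 19797 genes tested. All 9 probes passed the filter on dim probes. Of the 9 probes, 7 were well above background on all 31 arrays, and the inner Muc2 probe and the second Fcgbp probe on 30 of 31, the exception being CRC male 1 at 7 days for both. No spot was saturated.

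All mice were BALB/c and 4 to 6 weeks old when placed into groups. Each had 1 injection of azoxymethane (AOM), a colon carcinogen, 1 week before the start. All were given 2% dextran sulfate sodium (DSS), which injures the colonic epithelium, in the drinking water on days 1 to 5. The mice sampled at 2 days were taken within that course, so comparisons with 2 days set a complete course against an incomplete one. The CRC + E171 groups also received E171 by gavage at 5 mg per kg body weight per day, 5 days a week, and the CRC groups received water. No group lacked AOM and DSS, so every comparison is between mice that had both. Distal colon RNA was measured after 2, 7, 14 and 21 days on 1-colour Agilent arrays. Of the 8 groups, 7 had 2 male and 2 female mice and the remaining one, CRC at 21 days, had 1 male and 2 female mice. Every array held RNA of 1 mouse, by the design of the study. The arrays lay on 8 slides scanned on 3 days, and no slide held both treatments of the same day.

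Probe positions are those of the array files, on mouse build mm9, with chromosome, first and last base and strand. Muc2 had an inner probe at chr7:148883009-148883068 on the plus strand, which starts at base 1986 of its transcript, and an end probe at chr7:148940536-148940595, which starts at base 7304. The main Fcgbp probe lies at chr7:28905517-28905576 (plus) and the second, designed on an Ensembl transcript, at chr7:28873024-28873083 (plus). Zg16 lies at chr7:134193837-134193896 (minus), Agr2 at chr12:36730506-36730565 (plus), Clca1 at chr3:144667558-144667617 (minus), Tff3 at chr17:31262279-31262338 (minus) and Spdef at chr17:27851401-27851460 (minus). The accession of every probe with a RefSeq transcript belongs to the gene of that name, including the Clca1 probe. The 3 probes that follow were picked by name to be shown whole. Like the other probes they have at least 1 reading frame with no stop, so this does not set them apart.
Muc2 inner probe: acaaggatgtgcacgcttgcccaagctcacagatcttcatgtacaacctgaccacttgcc
Fcgbp main probe: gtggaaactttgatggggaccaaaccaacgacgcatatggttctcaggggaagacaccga
Zg16 probe: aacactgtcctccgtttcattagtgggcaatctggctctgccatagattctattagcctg

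The other probes are shown as stretches of 30 bases. Capitals mark AATAAA, the usual polyadenylation signal, which places the end probe of Muc2 and the probes of Tff3 and Spdef at the 3′ end of their messages. These letters were found in 9.8% of all 56605 probes on the strand of the probe.
Muc2 end probe: ttgctttccgatAATAAActcaggcatagc
Tff3 probe: ggagtcctgaagAATAAAgacctcacagcc
Spdef probe: tgccctggggatggatAATAAAgacgtaag
Agr2 probe: ggcagaagcactgtggacttgcagattaca
Clca1 probe: tttagacttcctgtagggggcggtatagta
Fcgbp second probe: tgagaatttggaacccaggtgttttgctct

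Since the 7 genes fell together on some arrays, the sequences upstream of their starts are given where RefSeq promoters were at hand, which was so for 4 of 7 genes (Muc2, Fcgbp, Agr2 and Spdef) and not for Tff3, Zg16 and Clca1. Each is the 250 bases before an annotated start on GRCm38.p6, read 5′ to 3′ on the strand of the gene: Muc2 at chr7:141690090-141690339 (plus), Fcgbp at chr7:28070986-28071235 (plus), Agr2 at chr12:35992675-35992924 (plus) and Spdef at chr17:27728952-27729201 (minus). Capitals mark 4 motifs searched on both strands: TATAA (TATA box), CAGCTG (an E-box), GATAA (GATA factors) and TTTAT (the core bound by Cdx factors).
Muc2 promoter: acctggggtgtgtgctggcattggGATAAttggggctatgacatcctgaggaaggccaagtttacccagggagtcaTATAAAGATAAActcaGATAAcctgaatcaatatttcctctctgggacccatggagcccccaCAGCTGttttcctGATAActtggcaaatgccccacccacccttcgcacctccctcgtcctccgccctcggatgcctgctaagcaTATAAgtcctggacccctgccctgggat
Fcgbp promoter: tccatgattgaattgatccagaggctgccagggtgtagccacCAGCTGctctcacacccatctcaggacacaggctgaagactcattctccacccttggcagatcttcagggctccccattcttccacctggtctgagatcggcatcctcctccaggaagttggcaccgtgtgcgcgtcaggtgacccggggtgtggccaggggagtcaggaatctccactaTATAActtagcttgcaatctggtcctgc
Agr2 promoter: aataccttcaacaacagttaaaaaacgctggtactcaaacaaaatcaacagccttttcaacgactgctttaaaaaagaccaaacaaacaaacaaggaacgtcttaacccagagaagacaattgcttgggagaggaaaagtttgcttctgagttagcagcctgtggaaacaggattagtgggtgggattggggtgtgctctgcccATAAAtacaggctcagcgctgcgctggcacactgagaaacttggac
Spdef promoter: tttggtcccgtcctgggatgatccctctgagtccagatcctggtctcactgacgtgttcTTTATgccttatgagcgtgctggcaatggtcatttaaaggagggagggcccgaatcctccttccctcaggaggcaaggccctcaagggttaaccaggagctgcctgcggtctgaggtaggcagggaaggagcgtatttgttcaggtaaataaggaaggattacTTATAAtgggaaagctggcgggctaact

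TATAA began at base -28 before the start in Muc2 and Fcgbp, and at base -27 in Spdef, where it overlaps a match on the other strand. Muc2 held a second TATAA at base -174. CAGCTG began at base -112 in Muc2 and at base -208 in Fcgbp. GATAA matched 4 times, all in Muc2, and TTTAT matched in Muc2 (on the other strand, overlapping TATAA and GATAA), Agr2 (base -46, other strand) and Spdef (base -191). Of 32851 promoter windows of this length, 22.8% held TATAA, 13.0% CAGCTG, 22.6% GATAA and 37.3% TTTAT, so each motif is common, and a match here is a description of the letters.

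Values are given on a log2 scale on which 0 is the 75th percentile of the processed signals of the array, so a value of 3 is 8 times that percentile. Probes differ in how brightly they bind, so a value is compared between arrays for 1 gene and never between genes. Signals were well above background for 67.4 to 78.9% of the spots of an array. A gene was called where the linear fold change was at least 1.5 and the unadjusted limma p under 0.05, and the Benjamini-Hochberg adjusted p over all 19797 genes is given beside it. The methods of the study write the fold threshold as a Log2FC, and with 1.5 on the log2 scale the counts of the 7 genes over all 31 arrays that follow were equal, except that Clca1 was not called between the sexes. The number of arrays limits the precision.

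**Figure D1:**
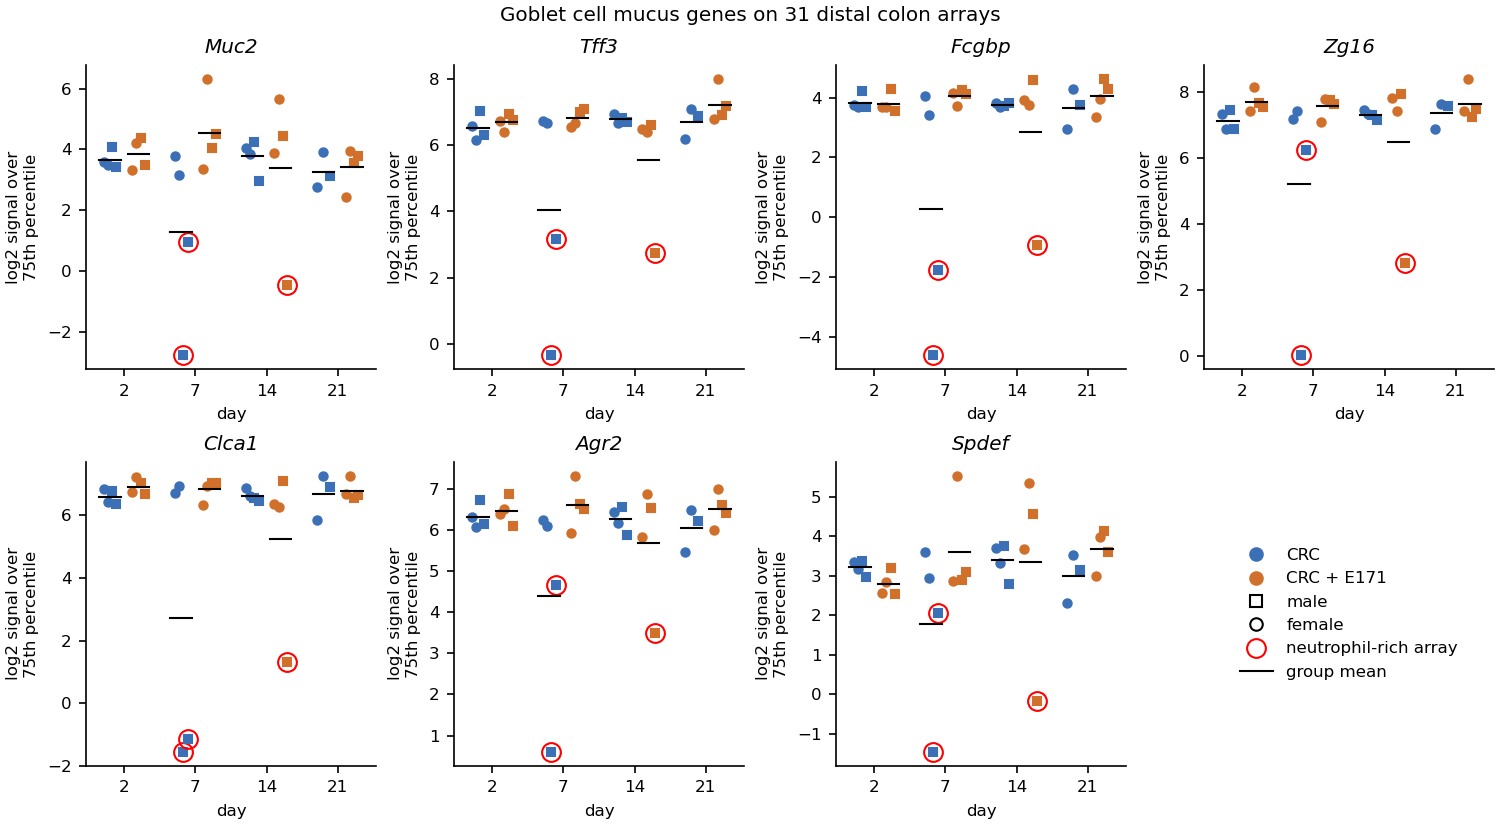
Log2 value (0 is the 75th percentile of the array) of each of the 7 genes on every array, by day and treatment, with the group mean as a line. Red rings mark CRC male 1 and male 2 at 7 days and CRC + E171 male 2 at 14 days, which lie below every other array for each of the 7 genes.

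Over 28 of the 31 arrays Tff3 ran from 6.17 to 8.0 with a median of 6.73, Zg16 from 6.87 to 8.40 (median 7.44), Clca1 from 5.85 to 7.26 (median 6.72) and Agr2 from 5.46 to 7.32 (median 6.40). Fcgbp ran from 2.94 to 4.62 (median 3.79), Spdef from 2.30 to 5.54 (median 3.26) and Muc2 from 2.44 to 6.31 (median 3.82). On the remaining 3 arrays, CRC male 1 and male 2 at 7 days and CRC + E171 male 2 at 14 days, all 7 genes were lower than on any of the 28. Of all genes tested, 18.3%, 19.8% and 11.5% were below all 28 arrays on these 3 arrays in that order.

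CRC male 1 at 7 days had the lowest values. There Clca1 was at -1.56, a difference of -8.28 from the median of the 28 arrays, and Zg16 at 0.02 (-7.43). Fcgbp was at -4.61 (-8.40) and Muc2 at -2.76 (-6.58), and since each is the mean of 2 probes of which 1 was not well above background, these are upper limits. Fold changes against the CRC group at 7 days or its males are thus lower limits for these 2 genes wherever that array is included, and are not ranked against those of the other genes. On CRC male 2 at 7 days Clca1 was at -1.15 and Fcgbp at -1.75, while Zg16 at 6.24 and Spdef at 2.07 lay closer to the range of the 28 (-1.20 and -1.19). On CRC + E171 male 2 at 14 days Clca1 was at 1.32 (-5.40), Tff3 at 2.74 (-3.99) and Zg16 at 2.81 (-4.64). Clca1, the mucus metalloprotease, thus had gaps of more than 5 on all 3 arrays.

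**Figure D2:**
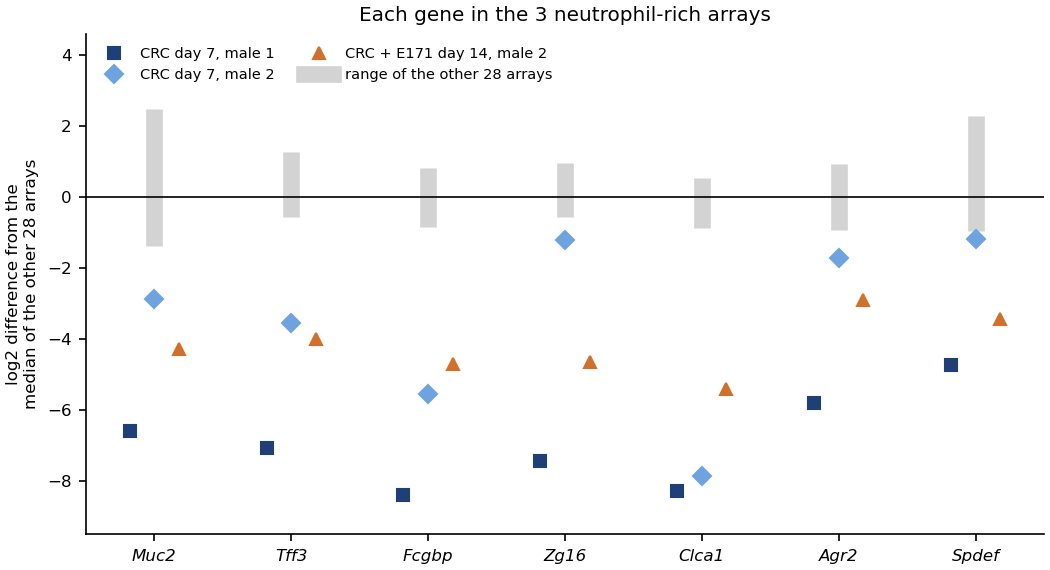
Difference of each of the 7 genes from the median of the other 28 arrays (log2) on the 3 arrays rich in neutrophil transcripts, with the range of the 28 arrays as a grey bar. Every point lies under its grey bar, from -8.40 for Fcgbp on CRC male 1 at 7 days, an upper limit as is that of Muc2 (-6.58) on the same array, to -1.19 for Spdef on CRC male 2 at 7 days.

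These 3 arrays were also the ones rich in neutrophil transcripts. The level of a list of 8 neutrophil genes (S100a8, S100a9, Cxcr2, Mmp8, Mmp9, Csf3r, Ly6g and Retnlg), as the median of gene-centred log2 values, was 4.26, 5.75 and 3.28 on them and -1.63 to 1.04 on the other 28. The pan-epithelial list of 11 genes, such as Epcam, Cdh1 and Krt8, was at -3.56, -1.34 and -0.37, against -0.16 to 0.64 on the others. The surface colonocyte list of 10 genes, such as Car4, Aqp8 and Slc26a3, was at -4.78, -2.80 and -2.02, against -0.26 to 1.58. The fibroblast list was at 1.01 to 1.09 on the 3 arrays, against -1.07 to 0.43 on the others, and the endothelial list at 0.41 to 1.29, against -0.58 to 0.33. The enteroendocrine list was at -3.71 to -0.52, against -0.92 to 1.24. The list of squamous epithelium was at 7.40, -0.83 and 4.79 on the 3 arrays, and the list of pancreatic acinar cells was at 8.25 on CRC male 2 at 7 days. Squamous transcripts were as high as 6.52 on CRC female 1 at 21 days, where Clca1 (5.85), Fcgbp (2.94), Agr2 (5.46) and Spdef (2.30) had the lowest values of the 28 arrays. Acinar transcripts were as high as 10.11 on CRC + E171 female 2 at 21 days, where Tff3 (8.0) and Zg16 (8.40) had the highest. The part of these other tissues and cells in the values of the 7 genes was not tested. In bulk tissue, fewer goblet cells and less RNA of these genes per goblet cell cannot be told apart.

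**Figure D3:**
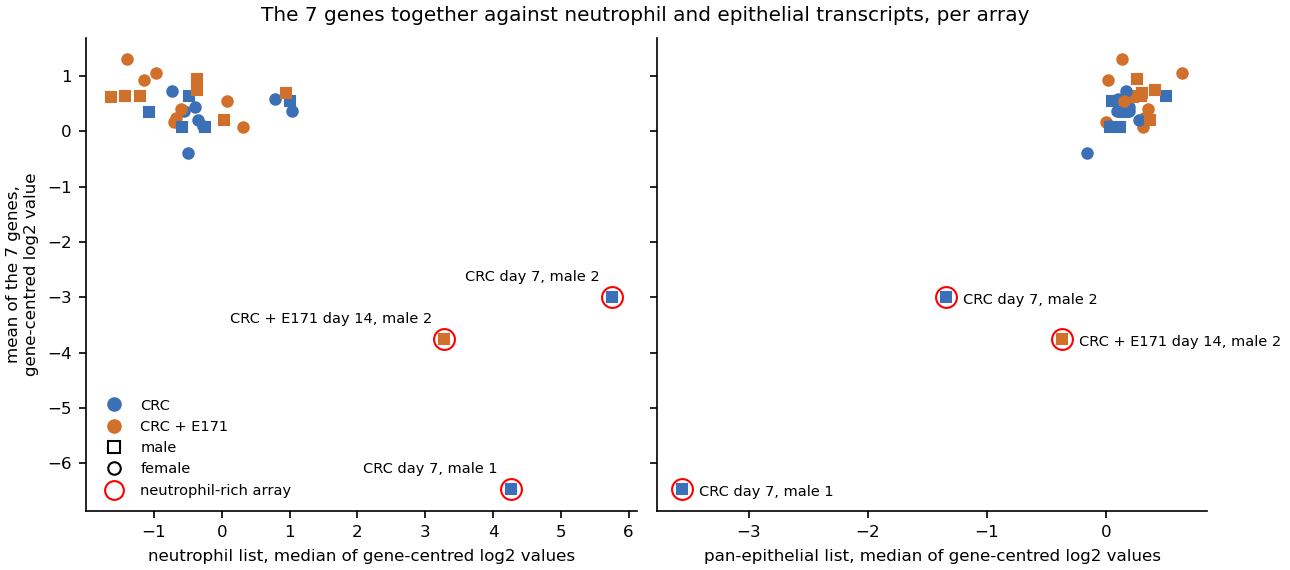
Mean of the 7 genes on each array (gene-centred log2 value, vertical axis) against the level of the neutrophil list and of the pan-epithelial list (median of gene-centred log2 values, horizontal axes). The 3 ringed arrays have means of -6.47 (an upper limit), -3.0 and -3.76, and the others lie between -0.40 and 1.30.

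At 7 days the genes were higher with E171 in 6 of 7 cases by the call rule, where 6.93% of all genes were called higher, and the CRC group held 2 of the 3 neutrophil-rich arrays. The median log2 fold change of the 7 genes was 2.78, against -0.01 over all genes. None of the 7 passed after adjustment, with adjusted p from 0.197 to 0.31 in limma, and the groups overlapped for every one of them.

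Muc2 was at 3.77 and 3.15 in the CRC females at 7 days and at -2.76 and 0.95 in the males. With E171 it was at 3.35 and 6.31 in the females and 4.04 and 4.50 in the males. Only the CRC males lay apart from the other arrays on the low side. The log2 fold change was 3.27, a lower limit (SE 1.06, adjusted p = 0.197 in limma, exact permutation p = 0.0571, where 0.0286 is the smallest that 4 against 4 arrays allow).

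Tff3 was at 6.72 and 6.66 in the CRC females at 7 days and at -0.35 and 3.18 in the males, and with E171 at 6.55, 6.66, 7.00 and 7.10. The CRC females lay within the range of the E171 arrays. The log2 fold change was 2.78 (SE 0.97, adjusted p = 0.204 in limma, exact permutation p = 0.143).

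Fcgbp was at 4.05 and 3.43 in the CRC females and at -4.61 and -1.75 in the males, and with E171 at 4.15, 3.71, 4.26 and 4.12. Its log2 fold change was 3.78, a lower limit (SE 1.21, adjusted p = 0.197 in limma, exact permutation p = 0.0571). Clca1 was at 6.71 and 6.94 in the CRC females and at -1.56 and -1.15 in the males, and with E171 at 6.32, 6.93, 7.03 and 7.04. Its log2 fold change was 4.09 (SE 1.34, adjusted p = 0.198 in limma, exact permutation p = 0.2), with the lowest E171 array under both CRC females.

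Zg16 was at 7.19 and 7.43 in the CRC females and at 0.02 and 6.24 in the males, and with E171 at 7.09, 7.80, 7.76 and 7.64. The log2 fold change of 2.35 (SE 1.07, adjusted p = 0.274 in limma, exact permutation p = 0.0857) was 0.62 without CRC male 1. Agr2, the disulfide isomerase that mucin folding needs, was at 6.24 and 6.11 in the CRC females, at 0.60 and 4.67 in the males, and with E171 at 5.94, 7.32, 6.64 and 6.52. Its log2 fold change was 2.20 (SE 0.78, adjusted p = 0.207 in limma, exact permutation p = 0.0857). Spdef was the gene not called at 7 days. It was at 3.60 and 2.95 in the CRC females, at -1.47 and 2.07 in the males, and with E171 at 2.87, 5.54, 2.90 and 3.09. Its log2 fold change was 1.81 (SE 0.90, adjusted p = 0.31 in limma, exact permutation p = 0.257).

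Without the 3 neutrophil-rich arrays, a setting added after the data were seen, 0 of the 7 genes were called at 7 days by limma, where 2.65% of all genes were. It left 2 CRC females against 2 females and 2 males with E171, so treatment was partly mixed with sex. The log2 fold change was then 1.09 for Muc2 (SE 0.61, adjusted p = 0.999), 0.43 for Agr2, 0.32 for Fcgbp and for Spdef, 0.26 for Zg16, 0.14 for Tff3 and 0.00 for Clca1, with 0 of the 7 at an unadjusted p under 0.05. The E171 array with the highest Muc2, at 6.31, was 1 of the arrays low in posterior Hox transcripts. Without CRC male 1 at 7 days alone, 3 genes were called higher, where 2.66% of all genes were, namely Clca1 (2.66), Fcgbp (2.15) and Muc2 (1.93), while Agr2 fell short at 0.93 and Tff3 at 1.31. Spdef was then at 0.73 and not called, while each of 6 other omissions of 1 array had it called. When limma was run on the arrays of the 2 groups alone 1 gene was called higher, where 2.6% of all genes were.

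**Figure D4:**
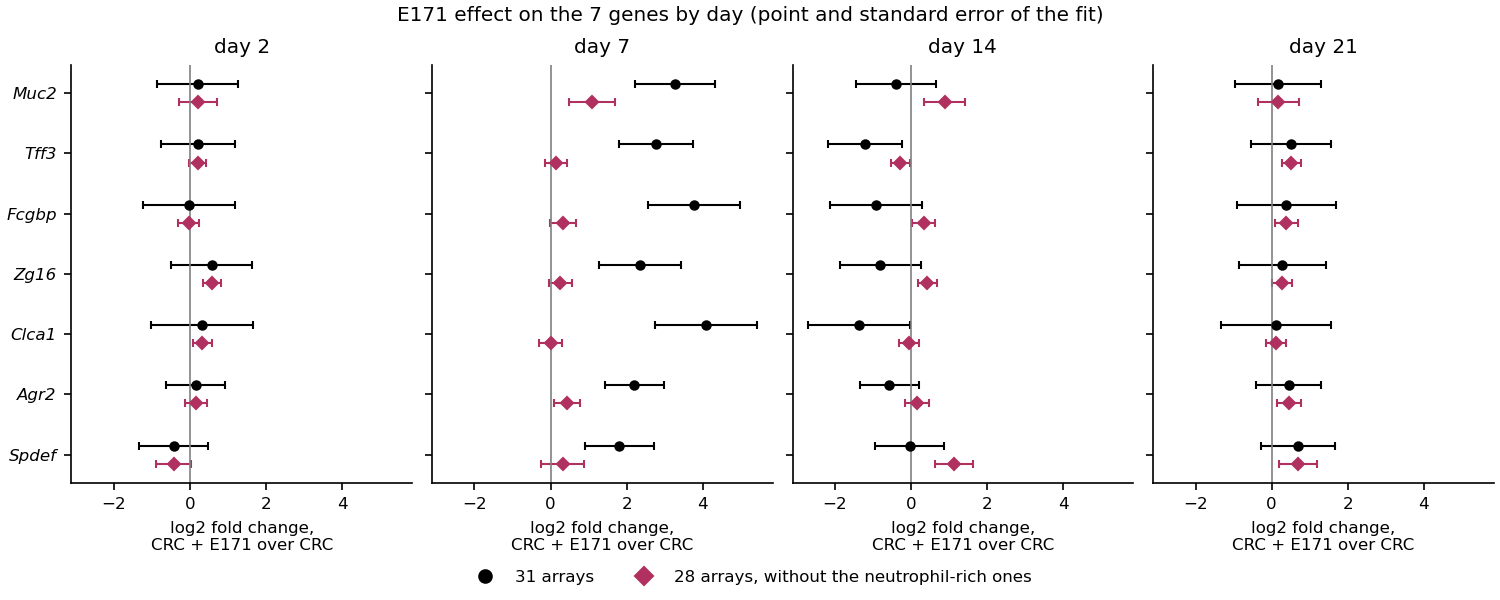
Log2 fold change of CRC + E171 over CRC with its standard error for each of the 7 genes on each day, over 31 arrays (black) and over the 28 arrays without the neutrophil-rich ones (red). At 7 days the black points lie between 1.81 and 4.09, those of Muc2 and Fcgbp being lower limits, and the red points between 0.00 and 1.09.

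At 2 days 0 of the 7 genes were called, where 1.72% of all genes were, and 0 had an unadjusted limma p under 0.05. The log2 fold changes ran from -0.43 for Spdef to 0.57 for Zg16. Zg16 was at 6.87, 6.87, 7.34 and 7.45 in the CRC group and at 7.44, 7.55, 7.67 and 8.15 with E171, so the groups overlapped by 1 array, and the exact permutation p was 0.0571. Muc2 had a mean of 3.64 ± 0.30 (SD, n = 4) in the CRC group and 3.84 ± 0.52 (SD, n = 4) with E171.

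At 14 days 0 of the 7 were called, where 6.34% of all genes were, and 0 had an unadjusted limma p under 0.05. All 7 values were below 0, from -1.38 for Clca1 to -0.04 for Spdef, and the E171 group held the third neutrophil-rich array. Without the neutrophil-rich arrays Spdef was called higher at 14 days, at 1.13 (adjusted p = 0.209 in limma), where 14.1% of all genes were called in either direction, with 2 of the 3 remaining E171 arrays low in posterior Hox transcripts (given with the Muc2 probes). Muc2 was at 0.88, Zg16 at 0.43, Fcgbp at 0.33, Agr2 at 0.15, Clca1 at -0.06 and Tff3 at -0.28. The levels of Spdef were 2.79, 3.33, 3.71 and 3.76 in the CRC group and -0.17, 3.68, 4.56 and 5.35 with E171. Tff3 was the 1 gene whose groups did not overlap at 14 days, as 5.9% of all genes did not, with 6.68, 6.70, 6.83 and 6.94 in the CRC group and 2.74, 6.40, 6.49 and 6.62 with E171 (exact permutation p = 0.0286, the smallest possible). Its log2 fold change was -1.22 (SE 0.97, adjusted p = 0.795 in limma).

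At 21 days 0 of the 7 were called, where 2.67% of all genes were, with log2 fold changes from 0.12 for Clca1 to 0.69 for Spdef and 0 with an unadjusted limma p under 0.05. No neutrophil-rich array belonged to either group. Tff3 was at 6.18, 6.87 and 7.08 in the CRC group and at 6.78, 6.91, 7.18 and 8.0 with E171. Spdef was at 2.30, 3.14 and 3.54 against 2.99, 3.60, 3.98 and 4.15. Both pairs of groups overlapped.

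The mean E171 effect over the 4 days was above 0 for each of the 7 genes, from 0.51 to 0.81, and 0 were called, where 1.79% of all genes were. Without the neutrophil-rich arrays it was 0.09 to 0.58 and Muc2 was called (0.58, adjusted p = 0.399 in limma), where 1.64% of all genes were. Zg16 was then at 0.38 (adjusted p = 0.286 in limma) and passed the unadjusted p but not the fold threshold. Without CRC + E171 male 2 at 14 days alone, 2 genes were called, where 3.99% of all genes were. The difference of the effect between days had an unadjusted p under 0.05 for Clca1 alone (adjusted p = 0.717 in limma), where 6.52% of all genes did, and for 0 of the 7 without the neutrophil-rich arrays, where 10.6% of all genes did.

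Because each slide held CRC arrays of one day and E171 arrays of another, the effect of 7 and 21 days together could also be taken within slides. It was above 0 for all 7 genes, from 1.15 to 2.07, and 0 were called higher, where 0.727% of all genes were (unadjusted limma p from 0.0741 to 0.168). Single arrays decided this count, which was 7 without CRC female 1 at 7 days, where 4.84% of all genes were called higher, and 3 without CRC female 2 at 7 days (3.34%). The effect of 2 and 14 days together within slides ran from -0.53 to -0.10, with 0 called, where 3.01% of all genes were.

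In the CRC groups, 5 of the 7 genes were called lower at 7 than at 2 days, where 6.2% of all genes were called lower. Clca1 fell by 3.86, Tff3 by 2.47 and Agr2 by 1.91 on the log2 scale, and Fcgbp fell by 3.56 and Muc2 by 2.37 as lower limits of the fall (adjusted p from 0.208 to 0.259 in limma). Zg16 (-1.91) and Spdef (-1.43) were not called. From 7 to 14 days 5 genes were called higher, where 4.23% of all genes were, by 3.89 for Clca1, 2.74 for Tff3 and 1.85 for Agr2, and by 3.48 for Fcgbp and 2.50 for Muc2 as lower limits (adjusted p from 0.487 to 0.49). Both comparisons share the CRC arrays of 7 days with each other and with the E171 effect at 7 days. Without the neutrophil-rich arrays 0 of the 7 were called in either comparison, where 2.3% of all genes were from 2 to 7 days and 3.93% from 7 to 14 days, and the changes of the 7 from 2 to 7 days ran from -0.19 to 0.23. Without CRC male 1 at 7 days alone 0 were called in either, where 4.31% and 2.02% of all genes were. Without CRC male 2 at 7 days 3 were called lower from 2 to 7 days, where 3.48% of all genes were, and without CRC male 1 at 14 days 3 higher from 7 to 14 days, where 3.64% were.

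The other comparisons over time called 0 of the 7 genes. The share of all genes called was 3.59% for CRC at 21 against 2 days, 3.27% for CRC + E171 at 7 against 2 days, 2.65% at 14 against 7 days and 7.39% at 21 against 2 days. For CRC + E171 at 14 against 7 days the 7 values ran from -1.58 to -0.25, with the third neutrophil-rich array at 14 days. Means of Tff3 in the CRC + E171 groups were 6.72 ± 0.22, 6.83 ± 0.27, 5.56 ± 1.89 and 7.22 ± 0.55 (SD, n = 4) at 2, 7, 14 and 21 days, and of Clca1 6.91 ± 0.25, 6.83 ± 0.34, 5.25 ± 2.65 and 6.78 ± 0.32 (SD, n = 4). In the CRC groups Tff3 was at 6.52 ± 0.38, 4.05 ± 3.37 and 6.79 ± 0.12 (SD, n = 4) at 2, 7 and 14 days and 6.71 ± 0.47 (SD, n = 3) at 21 days. For these 2 genes the groups with neutrophil-rich arrays had the lowest means and the widest spreads of those listed.

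All 3 neutrophil-rich arrays came from mice labelled male. In males at 7 days 6 of the 7 genes had an adjusted p under 0.05 for the E171 effect, where 15.3% of all genes did, and each group held 2 arrays. The log2 fold changes were 8.38 for Clca1, 5.64 for Tff3, 4.57 for Zg16 and 3.95 for Agr2, and 7.37 for Fcgbp and 5.17 for Muc2 as lower limits (adjusted p from 0.000121 to 0.0376 in limma), and 2.69 for Spdef (adjusted p = 0.145). Both CRC arrays of this comparison were neutrophil-rich, so no value could be had without them. Without either of them the CRC males were 1 array, itself neutrophil-rich, so effect sizes alone are given. Without CRC male 1 at 7 days they were 8.18 for Clca1, 5.94 for Fcgbp, 3.87 for Tff3, 3.32 for Muc2, 1.91 for Agr2, 1.46 for Zg16 and 0.93 for Spdef. Without CRC male 2 at 7 days they were 8.59 for Clca1, 7.40 for Tff3, 5.98 for Agr2, 7.68 for Zg16 and 4.46 for Spdef, and 8.80 for Fcgbp and 7.02 for Muc2 as lower limits.

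In males at 14 days, where the E171 group held the third neutrophil-rich array, all 7 values were below 0, from -2.30 for Clca1 to -1.08 for Spdef. Clca1 and Tff3 (-2.08) were called lower, where 1.07% of all genes were, and 0 of the 7 had an adjusted p under 0.05 in limma. The count called lower was 0 without that array, where 4.36% of all genes were, 0 without CRC male 1 at 14 days (1.81%), and 7 without CRC + E171 male 1 at 14 days, where 6.37% of all genes were, with 1 array left in the arm each time and assumed to vary like the other groups. Of the CRC males at 14 days, male 2 had sex transcripts that went against its label (gene-centred levels of -2.31 for Y-linked genes and 2.66 for Xist). It was the CRC array left without male 1, and no value for males at 14 days was taken without it. In females at 14 days the values ran from -0.45 for Clca1 to 0.99 for Spdef, with 0 called, where 11.6% of all genes were, and 0 at an unadjusted limma p under 0.05.

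In females at 7 days 0 of the 7 genes were called, where 2.01% of all genes were, with log2 fold changes from -0.20 for Clca1 to 1.37 for Muc2 and 0 with an unadjusted limma p under 0.05. The difference between the sexes in the E171 effect at 7 days had an adjusted p under 0.05 for 3 genes, Clca1 (8.58, adjusted p = 0.00541), Fcgbp (7.18, a lower limit, 0.0185) and Tff3 (5.72, 0.0273, all from limma), where 3.71% of all genes did. Without CRC male 1 at 7 days, which leaves 1 CRC male, Clca1 differed by 8.38, Fcgbp by 5.75 and Tff3 by 3.95. Without CRC male 2 instead, which also leaves 1, Fcgbp differed by 8.61, a lower limit, and Tff3 by 7.49. Over the omissions of 1 array Clca1 lay from 8.28 to 8.89. Averaged over the 4 days, the difference between the sexes was called for 0 genes, where 3.62% of all genes were called, and for 3 without CRC + E171 male 2 at 14 days (6.76% of all genes), 2 without CRC male 2 at 7 days (6.74%), and 1 without either CRC + E171 male 1 at 14 days (3.52%) or CRC female 1 at 21 days (4.23%). Males against females over all groups, Clca1 was called lower (-1.36, adjusted p = 0.55 in limma), where 1.82% of all genes were called lower, and was at 0.06 without the neutrophil-rich arrays. The sex transcripts of 1 of the 31 arrays, labelled CRC male 2 at 14 days, went against its label, and sexes are used here as labelled.

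The probes of Muc2 did not vary alike. Over the 28 arrays their values had a correlation of 0.73 and the end probe ran from 6.26 to 7.94, while the inner probe ran from -1.74 to 4.68 with a median of 0.67. The inner probe was highest on CRC + E171 female 2 at 7 days (4.68) and CRC + E171 female 2 at 14 days (4.18), and the next array was at 1.81. The same 2 arrays had the highest Spdef, at 5.54 and 5.35, and the end probe was at 7.94 and 7.14 there. Both arrays were low in the posterior Hox list of 6 genes, such as Hoxb13 and Hoxd13, which mark the distal colon, at -4.32 and -4.76. Another array, CRC + E171 female 1 at 14 days, was lower in that list (-5.66) with the inner Muc2 probe at 0.69 and Spdef at 3.68, and the 28 remaining arrays of the series lay from -1.40 to 2.34. These 3 arrays thus went against the label of distal colon, and their part in the values was not tested. Without them, 5 of the 7 genes were called higher at 7 days, where 6.26% of all genes were.

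**Figure D5:**
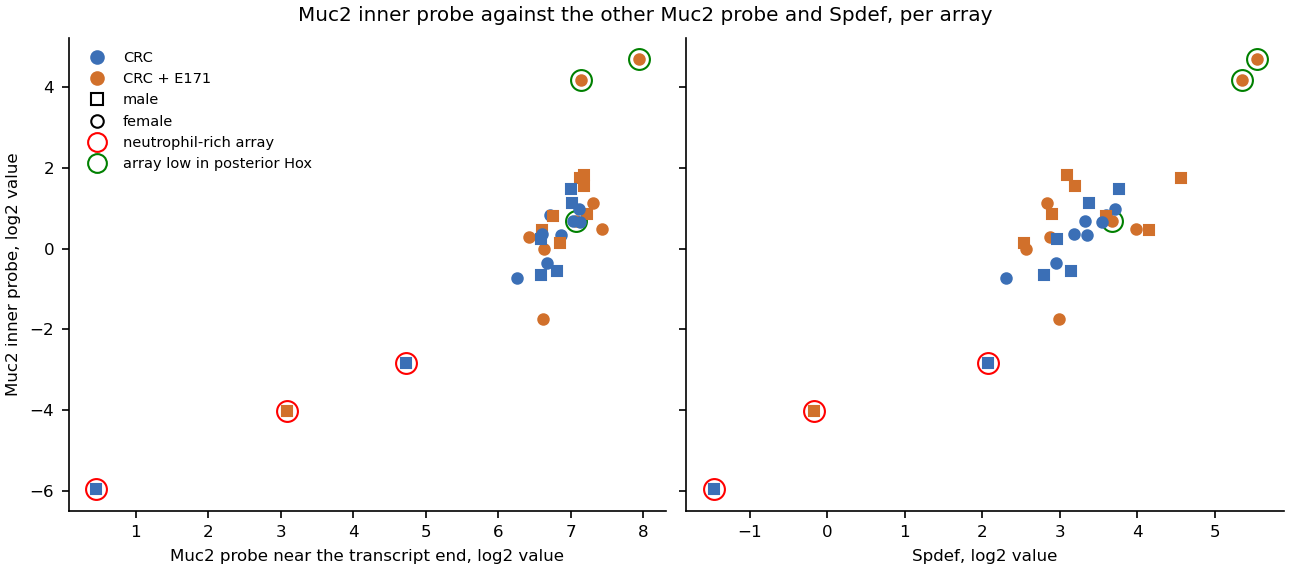
Log2 value of the inner Muc2 probe on each array against the end probe (left) and against Spdef (right), with red rings for the 3 neutrophil-rich arrays and green rings for the 3 arrays low in posterior Hox transcripts. The 2 highest inner probe values, 4.68 and 4.18, are green-ringed and have the highest Spdef values, 5.54 and 5.35.

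The probes of Fcgbp had a correlation of 0.64 over the 28 arrays. On CRC male 1 and male 2 at 7 days and CRC + E171 male 2 at 14 days, the main probe was at -2.17, 0.58 and 1.86 and the second at -7.05, -4.09 and -3.69, so both probes were low on all 3. The same held for Muc2, with the inner probe at -5.96, -2.82 and -4.01 and the end probe at 0.45, 4.72 and 3.09. The values of -5.96 and -7.05 were not well above background and are upper limits on the level.

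Among the 28 arrays without the neutrophil-rich ones, the 7 genes rose and fell together only in part. Of 21 pairs of genes, 13 had an adjusted permutation p under 0.05 for Pearson's r and 15 for Spearman's rho, and r ran from 0.09 to 0.80 with a median of 0.44. These are correlations over arrays of different days, treatments and slides. Muc2 and Spdef had r = 0.80 and rho = 0.62 (adjusted permutation p = 0.00014 and 0.00497), with r = 0.53 without the 2 arrays farthest from the median of Muc2 and r = 0.65, 0.90 and 0.89 within the 3 scan days. Muc2 and Agr2 had r = 0.79 and rho = 0.80 (adjusted permutation p = 0.000105 and 0.00021), with 0.71 without the 2 arrays and 0.65, 0.72 and 0.98 within the scan days. For both pairs these 2 arrays were CRC + E171 female 2 at 7 days and at 14 days, both low in posterior Hox transcripts. They fell on scan days 3 and 2, so r within those days, over 7 and 10 arrays, includes them and is no separate support. Zg16 and Clca1 had r = 0.76 and rho = 0.76 (adjusted permutation p = 0.000105 and 0.000315). Their r was 0.71 without the 2 arrays farthest from the median of Zg16 and 0.69, 0.81 and 0.82 within the scan days.

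By Pearson's r the lowest correlations were those of Muc2 with Tff3 (r = 0.09 and rho = 0.24, adjusted permutation p = 0.639 and 0.248) and of Tff3 with Spdef (r = 0.13 and rho = 0.20, adjusted permutation p = 0.518 and 0.323). Without the 2 farthest arrays these r were 0.34 and 0.02, and within the scan days 0.30, 0.02 and -0.07 for the first pair and 0.27, 0.13 and -0.02 for the second. By Spearman's rho the lowest was that of Spdef with Clca1 (rho = 0.13 and r = 0.14, adjusted permutation p = 0.497 and 0.518), with r = 0.33 without the 2 farthest arrays and 0.49, -0.24 and 0.20 within the scan days. The 3 neutrophil-rich arrays form a cluster of their own, so r and rho between the 7 genes are given over the 28 others.

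Likeness to other genes was ranked by r over all 31 arrays, an order that those 3 arrays weigh on, and the r printed is over the 28 others, where other genes may lie nearer. Among the genes ranked most like the mean of the 7 were Tpsg1, Atoh1, Hpd, Hepacam2, Hgfac, Galnt5, Guca2a, Phgr1 and Slc13a2. Over the 28 arrays their correlation with that mean was highest for Tpsg1 (0.842) and Hgfac (0.819) and was 0.552 for Atoh1, the factor that starts secretory differentiation. For single genes, those ranked first were Ptprn2 for Muc2 (0.871 over the 28 arrays), Rep15 for Tff3 (0.696), Hao2 for Fcgbp (0.721), Hgfac for Agr2 (0.83), Elapor1 for Spdef (0.889) and Cyp2d37-ps for Clca1 (0.188), where Prss30 (0.2) and Hsd11b2 (0.278), ranked after it, had a higher r over the 28. For Zg16 the first 3 were Klk1b5 (0.84), Klk1b26 and Klk1b3, kallikrein genes so alike that their probes may share transcripts.

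Of the other genes on which mucus depends, taken from lists by function, many were called at 7 days, and 0 of them had an adjusted p under 0.05 in limma. Over all genes 6.93% were called higher, the share against which the count of each list is to be read, and 5.48% lower. Counts without the neutrophil-rich arrays, where 2.65% of all genes were called in either direction, stand beside each list, since the CRC group at 7 days held 2 of them. The list of 15 transcription factors of the secretory lineage also held broader epithelial ones such as Cdx1, which is in the pan-epithelial list too. Of these 15, 9 were called higher with E171 and 0 lower, with a median log2 fold change of 1.25 against -0.01 over all genes. Without the neutrophil-rich arrays 1 was called higher, Sox9 (0.68). Atoh1 had a log2 fold change of 3.66, Cdx2, an intestinal homeobox factor, 2.72, Creb3l4 1.71 and Cdx1 1.53. Atoh1 was at -8.18 and -2.21 in the CRC males at 7 days and at 1.91 and 1.16 in the females, the same split as in the 7 genes. Its probe was not well above background on CRC male 1, so -8.18 is an upper limit and 3.66 a lower one. Fold changes that follow are lower limits too for Galnt5, Sytl2 and Cadps2, which had a probe not well above background on CRC male 1 at 7 days, for Slc26a3, Cftr, Muc3 and Agr3, which had one on both CRC males, and for Slc9a3, which had one on these and on CRC female 2.

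Of 30 genes of mucin O-glycosylation tested, 14 were called higher and 1 lower (median 1.09), and 0 higher and 1 lower, Fut4 (-1.19), without the neutrophil-rich arrays. They included B4galnt2 (2.86), Gcnt3 (2.65), which makes branched core structures of mucin glycans, Galnt5 (2.33), a transferase that starts them, and the sulfate transporter Slc26a2 (1.81). Of 15 genes of granule exocytosis 6 were called higher and 0 lower (median 0.56), with 0 either way without the neutrophil-rich arrays. These included Nlrp6 (2.83), Sytl2 (1.88), Cadps2 (1.70) and Mlph (1.36). Of 10 genes of the ion and water environment of mucus 5 were called higher and 0 lower (median 1.87), with 0 either way without those arrays. They included the water channel Aqp8 (3.78), the chloride and bicarbonate exchanger Slc26a3 (3.18), the sodium and proton exchanger Slc9a3 (2.76) and the chloride channel Cftr (2.27). Aqp8, Slc26a3 and Car4 of this list are also in the surface colonocyte list, so the counts here are not separate from the level of that list.

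Of 9 other mucins tested 4 were called higher and 0 lower (median 0.16), namely the membrane-bound Muc3 (2.64), Muc3a (2.46), Muc13 (1.76) and Muc4 (1.04), and 0 without the neutrophil-rich arrays. Muc3 and Muc3a are close relatives and their probes may share transcripts, and Muc3 is also in the surface colonocyte list. Of 19 genes of protein folding in the endoplasmic reticulum 2 were called higher, Ern2 (2.32), the inositol-requiring enzyme of mucous epithelia, and Agr3 (2.19), and 0 lower (median -0.03), with 0 without those arrays. Of 17 other secreted goblet and deep crypt products 2 were called higher, Tpsg1 (3.34) and Spink4 (2.04), and 2 lower, Tff1 (-1.24) and Ccl9 (-0.97), with 0 either way without those arrays. Of 8 Notch ligands and receptors Notch1 was called higher (1.20) and Notch3 (-0.99), Dll1 (-0.92) and Jag1 (-0.62) lower, with 0 higher and 1 lower, again Dll1 (-0.88), without those arrays.

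From 2 to 7 days in the CRC groups, which shares the CRC arrays of 7 days, 6.2% of all genes were called lower and 7.21% higher, and 0 genes of these lists had an adjusted p under 0.05 in limma. Of the 15 transcription factors 8 were called lower and 0 higher (median -1.42), among them Atoh1 (-3.69, a fall that is a lower limit), Cdx2 (-2.51), Foxa2 (-2.43) and Creb3l4 (-1.74), and 0 either way without the neutrophil-rich arrays (median -0.03). Of the 30 O-glycosylation genes 14 were called lower and 1 higher (median -1.01), and of the 15 exocytosis genes 8 lower and 0 higher (median -0.78). Without the neutrophil-rich arrays 0 were called either way in both lists (medians -0.07 and -0.10), where 2.3% of all genes were called.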

How the data were processed

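Distal colon RNA was hybridised to 31 Agilent SurePrint G3 arrays. The authors extracted spots with Agilent Feature Extraction 10.7.3.1, and the deposited processed signal is a background-subtracted intensity, not normalized between arrays. The authors also deposited a matrix on the log2 scale, normalized by a method not given in the sources used here, with columns whose medians run from 9.43 to 9.67. It served as an alternative.

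Processed signals were divided by the 75th percentile of their array and converted to log2. Spots with an outlier flag were left out. A probe was kept where in at least 1 group 60% of the arrays had it well above background at a group mean of 4 or more in log2 signal (42787 probes). A RefSeq gene (GRCm38.p6) was found for 34344 of them by accession, symbol or synonym, and probes of a gene were averaged. R 4.3.3 and limma 3.58.1 fitted 1 model over the 8 groups, 1 over groups split by labelled sex, and 1 within slides. The fits were tested on simulated data with 200 changed genes. Permutation p-values were exact and two-sided for single genes and used 1e+05 resamples for correlations.

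The genes, the marker lists and the lists by function were chosen with earlier results of these data known. Named from a list were at most 4 called genes by size, and the nearest genes by Pearson's r over 31 arrays, of which 1 is not reported here. A neutrophil-rich array is one whose neutrophil list lies more than 2 above the median of the 31 arrays, and an array low in posterior Hox more than 2 below it, rules set after the data were seen. No 2 arrays held identical values, and the highest correlation within a group was 0.9901. Alternatives tried were normexp with an offset of 50, quantile scaling, an unfiltered set, the authors' matrix, the brightest probe, only the groups compared, labelled sex, a replicate block, slide as a random block, scan day, array weights, values relative to the pan-epithelial list, and leaving out arrays.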

Additional observations from a re-analysis of the deposited data

Results flagged for a closer look

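Each of the 7 genes was looked at in each of the 7 groups of 4 arrays, and a single array stood apart from the other 3 in 8 of these 49 sets, by Dixon's test of the gap over the range. Chance gives this in about 1 in 20 sets, and these sets share arrays, so their number is not set against that rate. On CRC + E171 male 2 at 14 days, which was neutrophil-rich, the values were low for Tff3 (2.74), Fcgbp (-0.91), Zg16 (2.81) and Clca1 (1.32). On CRC male 1 at 7 days, also neutrophil-rich, Zg16 was low at 0.02. Spdef was high on CRC + E171 female 2 at 7 days (5.54), an array low in posterior Hox transcripts. Fcgbp was high on CRC male 1 at 2 days (4.23) and Clca1 low on CRC + E171 female 1 at 7 days (6.32), both inside the range of the 28 arrays without the neutrophil-rich ones.

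The E171 effect at 7 days differed between males and females for Clca1 by 8.58 (adjusted p = 0.00541 in limma), for Fcgbp by 7.18 as a lower limit (adjusted p = 0.0185) and for Tff3 by 5.72 (adjusted p = 0.0273) on the log2 scale. The 2 male CRC arrays of this comparison were both neutrophil-rich, and the part of that in the difference was not tested.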

How the results depend on the processing

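Counts are of the 7 genes called. The share of all genes called moves with the setting and was not taken in each, so the counts in this section are not read against it. At 7 days the E171 effect gave 6, 1 on only the groups compared, and 0 with array weights or without the neutrophil-rich arrays. Leaving out the 11 arrays apart in squamous or acinar transcripts left 1 CRC array at 7 days, female 2. Counts of comparisons with that group are not given for this setting. CRC at 7 against 2 days gave 5, and 0 on only the groups compared, with array weights or without the neutrophil-rich arrays. It gave 2 relative to the pan-epithelial list, both at an adjusted p under 0.05 in limma. CRC at 14 against 7 days gave 5, and 0 on only the groups compared, with array weights or without the neutrophil-rich arrays. It gave 3 relative to the pan-epithelial list or with scan day as a term. The E171 effect at 14 days gave 0, and 1 relative to the pan-epithelial list or without the neutrophil-rich arrays, and its mean over the days 0, and 1 without the latter. CRC + E171 at 21 against 2 days gave 0, and 1 on only the groups compared. The difference between days gave 1, 3 with quantile normalization, the authors' matrix or values relative to the pan-epithelial list, 2 with normexp, and 0 without the neutrophil-rich arrays. For it the share of all genes was 6.52% over all arrays and 10.6% without the neutrophil-rich ones. Males against females gave 1, and 0 with quantile normalization, the authors' matrix or values relative to the pan-epithelial list. It also gave 0 at a log2 fold change of 1.5. Leaving out the arrays apart, the neutrophil-rich or the Hox-low ones, each in a run of its own, gave 0 too. The difference between sexes gave 0, and 1 with quantile normalization or the authors' matrix. Within slides, 2 and 14 days gave 0, and 1 without the Hox-low arrays. Of the 21 pairs of genes 13 passed without the neutrophil-rich arrays, the count given. Leaving out 1 array at a time gave 3 to 7 for E171 at 7 days, 0 to 2 for its mean over days, 0 to 7 for CRC at 7 against 2 and at 14 against 7 days and for 7 and 21 days within slides, 0 to 1 for 2 and 14 days within slides, 0 to 5 between days (another count in each of 31 omissions), 0 to 3 for males against females (another count in 12 of 31 omissions) and 0 to 3 between sexes. Signs turned for Clca1 without the arrays apart (E171 at 7 days -0.11, CRC at 7 against 2 days 0.14, at 14 against 7 days -0.31, males against females 0.15). The values that involve CRC at 7 days rest on the 1 array left there. Signs also turned for Clca1 without the neutrophil-rich arrays (CRC at 7 against 2 days 0.23, at 14 against 7 days -0.20, males against females 0.06). Without these arrays they turned for Tff3 (CRC at 7 against 2 days 0.17) and Spdef (E171 at 14 days 1.13) too. The sign of Spdef in males at 7 days turned relative to the pan-epithelial list (-0.34). The cause was not tested in any of these. Among values called neither as reported nor in the alternative, 113 signs changed under other settings and 68 on leaving out 1 array. With sex and replicate number as a replicate block the count at 7 days was 7, and the other counts of the days, their mean and the comparisons over time did not move. Of 15 same-numbered pairs 8 had a correlation over 0.1 (-0.18 to 0.48), and 8 of 15 CRC arrays matched their own number best. Since not every pair was over 0.1, the numbers were not used to pair the mice. All 9 probes were well above background on 30 or 31 arrays.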

Other observations

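At 14 days, 2 of the 123 genes tested from the lists by function were called higher with E171 and 6 lower, which is 6.5% of them where 6.34% of all genes were called, and 0 of them had an adjusted p under 0.05 in limma. Sval1, from the list of secreted goblet and deep crypt products, was at 5.6, 5.69, 6.11 and 6.23 in the CRC group and at -3.61, -0.23, 0.30 and 6.92 with E171 (log2 fold change -5.06, adjusted p = 0.534). B3gnt7, a glycosyltransferase, was at -0.99 to 0.39 in the CRC group and at -5.28, -4.53, -3.72 and 0.54 with E171 (-2.81, adjusted p = 0.59). In both genes 2 of the 3 low arrays were low in posterior Hox transcripts and the third was neutrophil-rich. Ano1, a calcium-activated chloride channel, was at 4.68 to 5.18 in the CRC group and at 1.54, 3.23, 3.83 and 5.25 with E171 (-1.43, adjusted p = 0.576), with the same 3 arrays low. Tff1, a trefoil peptide of gastric mucous cells, was at -4.32 to -3.99 in the CRC group and at -3.90, -2.83, -2.64 and -1.63 with E171 (1.40, adjusted p = 0.512), so its groups did not overlap, as those of 5.9% of all genes did not.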
